A study of Mus musculus with 24 samples.

Results

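The genes described here are the mouse genes whose symbols begin with Kmt, Kdm, Hdac, Setd, Kat, Brd or Prmt followed by a digit, the main symbol families of enzymes that add or remove methyl and acetyl groups on histones, together with bromodomain proteins. The Y-linked demethylase gene Kdm5d was left out by the same rule. The table held 62 such genes among 11140 listed, and all 62 were among the 11020 genes that passed the filter on low counts. The symbols cover more than histone enzymes. The Brd genes encode bromodomain proteins that bind acetylated lysine, and Setd3, Setd6, Hdac6 and several Prmt genes encode enzymes that act mainly or also on proteins other than histones, such as actin, RelA and tubulin.

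Methylation of lysine 4 of histone H3 (H3K4) marks active promoters and enhancers, whereas methylation of lysine 27 (H3K27) marks repressed genes, and each mark is placed by one set of enzymes and removed by another. Acetylation of histone lysines opens chromatin, is placed by Kat enzymes and p300/CBP, is read by bromodomains and is removed by histone deacetylases (HDACs). In germinal centre B cells the transcription factor BCL6 represses genes through corepressors that carry HDAC3 and other deacetylases, and KMT2D and CREBBP are among the genes most often mutated in human germinal centre lymphomas.

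The RNA came from purified splenic B lymphoma cells of C57BL/6 mice and was sequenced from TruSeq libraries. The T cell sufficient lymphomas, 12 in number, arose in mice of genotype Bcl6Tg/+, and the 11 T cell deficient lymphomas arose in mice of genotype Bcl6Tg/+CD3Epsilon-/-, which also lack the CD3 epsilon chain needed for T cells to develop. Both groups thus carry the Bcl6 transgene, and there were no B cells without it. The transgene's promoter and the animals' ages were not given in the sources used here. Libraries were sequenced in 2 batches that the series describes as runs, with 7 sufficient and 5 deficient libraries in run 1 and 5 sufficient and 6 deficient libraries in run 2. The series addresses how lymphomas that arose with T cells compare with those that arose without them. Each library is a separate lymphoma by its label, and the p-values measure the spread between these lymphomas.

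Library totals over the listed genes ran from 7.58 to 30.6 M counts (M, mega) in the sufficient group and from 11.8 to 28.1 M in the deficient group. At these depths 3 counts are worth 0.0980 to 0.396 CPM (counts scaled by library total), which covers counting error only. The B cell receptor gene Cd79a was present in every library, at 479 CPM or more. The 6 B cell markers summed to 4423 to 9998 CPM in the sufficient group and 3155 to 7044 CPM in the deficient group, and 4 of the 6 were lower in the deficient group. Of 15 proliferation genes 13 were higher in the deficient group, with summed levels of 1946 to 4655 CPM against 4736 to 7691 CPM and so no overlap between the groups. Of 12 tested monocyte and macrophage markers 2 were lower in the deficient group, Lyz2 and Itgam, and the 12 summed to 191 to 2313 CPM against 126 to 606 CPM. Of 8 tested T cell markers 1, Cd2, was lower in the deficient group, and the 8 summed to 252 to 880 CPM against 205 to 891 CPM. Most of this sum was Lck (means of 315 and 466 CPM) and Cd2 (189 and 75.1 CPM). Cd3e stood at a mean of 0.966 CPM against 2.47 CPM (edgeR adjusted p = 0.179). Cd3g went the other way, at 5.64 CPM against 1.92 CPM (edgeR adjusted p = 0.0993), and neither was called. Of 4 stromal and endothelial markers 2 were lower (sums of 30.3 to 259 CPM against 24.4 to 163 CPM), of 4 plasma cell markers 1 was lower (309 to 1890 CPM against 309 to 1396 CPM), of 3 dendritic cell markers 2 were higher (5.25 to 49.0 CPM against 12.6 to 38.7 CPM) and of 3 NK cell markers 1 was higher (0.660 to 22.1 CPM against 1.2 to 16.7 CPM). The 3 neutrophil and 4 erythroid markers missed the threshold. The part of these markers in the differences below was not tested, and in bulk RNA fewer cells of a type and less RNA per cell cannot be told apart. In 5 sufficient libraries (2 of run 1 and 3 of run 2) and no deficient library, both Xist and the Y-linked genes together stood above 5 CPM. This split depends on the cut. The 2 libraries of run 1 passed it with Xist at only 5.38 and 5.64 CPM. T cell deficient lymphoma 2, with 1057 CPM of Xist and 4.60 CPM of Y-linked RNA, fell just under it. So did sufficient lymphoma 8, with 1186 and 4.86 CPM. All deficient libraries but those of lymphomas 2, 5 and 10 held Xist at 3.39 CPM or less and Y-linked RNA at 162 to 461 CPM. Sufficient lymphomas 1, 3 and 8 to 12 held Xist at 84.3 CPM or more. The groups thus differed in these sex-linked transcripts. Fits with Xist and Y-linked levels as covariates are given for the X-linked genes Hdac6, Kdm6a and Kdm5c. The results that rest on the 5 libraries are also given without them.

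Of the 7 members that passed the test, 5 have an entry in the table of RefSeq promoter windows (GRCm38.p6), which run from 250 bases before to 50 after the start of transcription. The windows are shown because these members moved in the same comparison, and capitals mark every match, on either strand, to the motifs searched. The motifs were the E-box CACGTG, the cell cycle element CHR (TTTGAA), the CCAAT box, the SP1 site GGGCGG, the NRF1 core (its 10-letter palindrome) and the ETS site CCGGAAG, and no 2 matches overlapped within the windows printed. Each window is written 5′ to 3′ on the strand of its gene.
Kmt2d, chr15:98871156-98871455, minus strand: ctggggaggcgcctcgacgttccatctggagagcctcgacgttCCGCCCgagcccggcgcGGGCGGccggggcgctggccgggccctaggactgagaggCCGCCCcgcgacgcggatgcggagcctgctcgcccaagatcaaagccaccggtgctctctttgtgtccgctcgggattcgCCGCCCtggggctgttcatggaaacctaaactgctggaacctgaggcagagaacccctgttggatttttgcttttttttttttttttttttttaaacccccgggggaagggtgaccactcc
Kdm4c, second of 2 windows, chr4:74251629-74251928, plus strand: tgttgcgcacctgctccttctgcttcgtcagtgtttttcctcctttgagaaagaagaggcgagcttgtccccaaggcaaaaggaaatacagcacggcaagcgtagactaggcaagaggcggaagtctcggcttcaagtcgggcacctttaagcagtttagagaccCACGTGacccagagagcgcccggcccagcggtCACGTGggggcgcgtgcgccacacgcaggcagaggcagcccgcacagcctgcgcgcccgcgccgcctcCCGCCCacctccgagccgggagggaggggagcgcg
Kdm1a, chr4:136602674-136602973, minus strand: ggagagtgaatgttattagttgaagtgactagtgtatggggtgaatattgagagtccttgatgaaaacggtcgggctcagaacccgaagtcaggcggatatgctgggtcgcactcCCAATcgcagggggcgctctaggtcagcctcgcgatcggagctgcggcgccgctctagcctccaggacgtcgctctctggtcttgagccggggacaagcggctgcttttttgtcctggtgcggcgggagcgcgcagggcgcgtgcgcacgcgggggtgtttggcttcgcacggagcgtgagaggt
Hdac6, chrX:7947840-7948139, minus strand: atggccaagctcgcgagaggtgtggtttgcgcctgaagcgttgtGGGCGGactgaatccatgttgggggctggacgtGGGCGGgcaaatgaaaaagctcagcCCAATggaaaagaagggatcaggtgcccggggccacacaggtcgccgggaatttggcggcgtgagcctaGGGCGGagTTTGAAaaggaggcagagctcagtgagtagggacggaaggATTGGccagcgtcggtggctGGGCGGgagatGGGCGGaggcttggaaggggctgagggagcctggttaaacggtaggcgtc
Prmt1, chr7:44986371-44986670, minus strand: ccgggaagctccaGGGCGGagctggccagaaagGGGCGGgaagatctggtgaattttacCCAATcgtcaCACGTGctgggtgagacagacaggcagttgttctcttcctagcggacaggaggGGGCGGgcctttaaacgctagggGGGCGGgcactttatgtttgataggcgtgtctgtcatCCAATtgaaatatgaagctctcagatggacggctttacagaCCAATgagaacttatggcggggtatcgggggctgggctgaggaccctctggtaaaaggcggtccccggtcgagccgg

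The Kmt2d window held 4 SP1 matches and none of the other motifs. The Kdm4c window shown held 2 E-boxes, 85 and 53 bases before the start, and 1 SP1 match, while the first Kdm4c window, at chr4:74242247-74242546, held no match. The Kdm1a window held 1 CCAAT box. The Hdac6 window held 5 SP1 matches, 2 CCAAT boxes and 1 CHR match. The Prmt1 window held 4 SP1 matches, 3 CCAAT boxes and 1 E-box. Over the 68 windows of the 48 members that have one, 63.2% held an SP1 match against 35.7% of all 32851 windows, and 17.6% held an ETS match against 8.86%. The members' windows were also richer in G and C, with a median of 62.3% against 52.7%. The E-box was held by 8.82% of member windows and 7.15% of all windows, the CCAAT box by 39.7% and 37.4%, CHR by 11.8% and 17.9%, and the NRF1 core by 1.47% and 0.971%. The 32851 windows were not limited to genes expressed in these cells, whereas all 62 members passed the filter on low counts. A match is a description of these letters and not a binding site.

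The first question was whether these genes differ between lymphomas that arose without and with T cells. Of the 62 members 7 (11.3%) passed the test over both runs, against 22.2% of all genes tested, with 5 higher and 2 lower in the T cell deficient group. The demethylase genes Kdm6b, Kdm4c and Kdm1a, the deacetylase gene Hdac6 and the arginine methyltransferase gene Prmt1 rose, and the methyltransferase gene Kmt2d and the deacetylase gene Hdac10 fell. The test was edgeR's quasi-likelihood test with run as a covariate, adjusted by Benjamini-Hochberg over all 11020 genes, and a gene was called at an adjusted p under 0.05. By direction, 8.06% of the members were higher against 10.6% of all genes, and 3.23% were lower against 11.7%. At an unadjusted p under 0.05 there were 17 of the 62 members and 3973 of the 11020 genes, again a smaller share of the members. The median log2 fold change of the members was 0.05 and that of all genes -0.01, and the median size of the change was 0.18 for the members and 0.25 for all genes. Since most members are well expressed, the 6651 genes within the middle 80% of the members' levels were also counted, and 22.7% of them were called, with a median size of 0.20. The spread between lymphomas within a group, after the run means were removed, was like that of these genes. In the sufficient group the median SD of log2 CPM was 0.31 for the members and 0.32 for the 6651 genes. In the deficient group it was 0.28 for both. The 2 groups' CPM ranges overlapped for every member, whereas 18 genes of the 11020 (0.163%) had ranges that did not overlap.

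**Figure D1:**
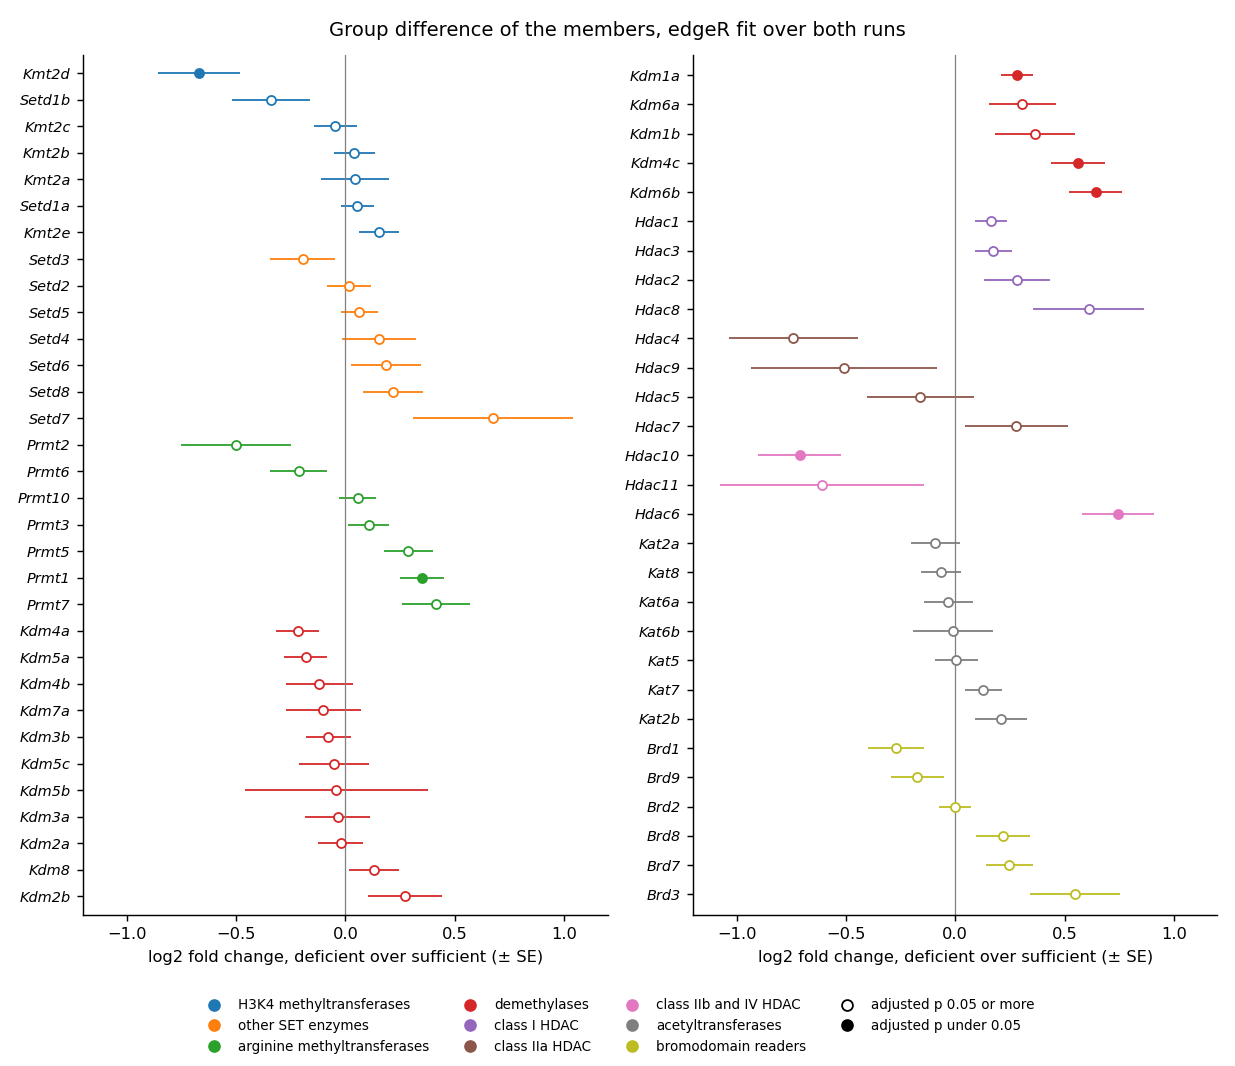
Log2 fold change (T cell deficient over sufficient) of the members (1 not drawn), grouped by role, with standard errors as bars (12 sufficient and 11 deficient libraries, edgeR with run as a covariate). The 7 members past the threshold lie between -0.71 for Hdac10 and 0.74 for Hdac6, and the others mostly lie near 0.

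The H3K4 methyltransferases, Kmt2a to Kmt2e, Setd1a and Setd1b, had 1 called member of 7. KMT2D, which places H3K4 monomethylation at enhancers, is encoded on chromosome 15 at 98831669 to 98871204 (GRCm38, minus strand). Its level in the sufficient group ran from 99.1 CPM through a median of 158 to 1032 CPM, with a mean of 358 ± 311 (SD, n = 12). In the deficient group it ran from 85.0 CPM through a median of 217 to 346 CPM, with a mean of 209 ± 97.3 (SD, n = 11). The 5 highest libraries were all sufficient libraries of run 2, the other 7 sufficient libraries lay inside the deficient range, and the deficient median was the higher of the medians. With run as a covariate Kmt2d was 1.59-fold lower in the deficient group (log2 fold change -0.67 ± 0.19 SE, edgeR adjusted p = 0.0142). The difference rested on run 2 and on the run term, as described below, and when the 5 libraries with Xist and Y-linked RNA together were left out the log2 fold change was -0.54 (edgeR adjusted p = 0.0739). Of the run 2 sufficient libraries 2 then remain, at 607 and 720 CPM, both above every deficient library.

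The other 6 H3K4 methyltransferases did not pass. Kmt2a, the gene of the enzyme known as MLL1, averaged 331 CPM ± 207 (SD, n = 12) and 365 CPM ± 207 (SD, n = 11) in the groups, and its log2 change was 0.05 ± 0.16 SE. Kmt2b, its closest relative, had 0.04 ± 0.09 SE, and Kmt2c, a relative of Kmt2d, had -0.05 ± 0.10 SE. Within the family, then, the fitted differences ran from -0.67 for Kmt2d to 0.15 for Kmt2e. Setd1a (0.05) and Setd1b (-0.34, adjusted p = 0.174 in edgeR) encode the enzymes that place most H3K4 trimethylation at promoters. The gene model of Setd1a shares 52.3% of its exon bases with an overlapping gene on the same strand, so its reads cannot be assigned with certainty.

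All 7 other SET-domain members missed the threshold, with log2 fold changes from -0.19 for Setd3 to 0.68 for Setd7. Setd2, whose product places H3K36 trimethylation along transcribed genes and which is recurrently mutated in human lymphomas, averaged 258 CPM ± 81.1 (SD, n = 12) and 278 CPM ± 77.4 (SD, n = 11), with 0.02 ± 0.10 SE. Setd7 had the largest fitted value of the group and 1 library behind it. T cell deficient lymphoma 6 held 742 CPM of Setd7, against 55.2 to 121 CPM in the other 10 deficient libraries and 27.5 to 99.3 CPM in the sufficient ones, and the test gave 0.68 ± 0.37 SE (edgeR adjusted p = 0.189). That library was the highest of all 23 for 17 of the 62 members.

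Of the 7 arginine methyltransferases, which methylate histones, RNA-binding proteins and splicing factors, 1 rose. PRMT1, the main enzyme of asymmetric arginine dimethylation, is encoded on chromosome 7 at 44975989 to 44986568 (GRCm38, minus strand). Prmt1 ran from 120 CPM through a median of 160 to 208 CPM in the sufficient group and from 112 through 188 to 325 CPM in the deficient group. The groups overlapped widely, with the highest values in the deficient group. Prmt1 was 1.28-fold higher there (log2 fold change 0.35 ± 0.10 SE, edgeR adjusted p = 0.0175), and the adjusted p was 0.177 with no run term. Prmt5, whose product makes symmetric dimethylarginine, averaged 119 CPM ± 19.4 (SD, n = 12) and 140 CPM ± 35.1 (SD, n = 11), with 0.29 ± 0.11 SE (edgeR adjusted p = 0.0701). Prmt7 had 0.41 ± 0.15 SE (adjusted p = 0.0564 in edgeR) and Prmt2, the lowest of the group, had -0.50 ± 0.25 SE.

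Of the 16 demethylases, the largest role group, 3 were called, all higher in the deficient group, a share near the 22.2% of all genes. KDM6B, also known as JMJD3, removes methyl groups from H3K27. Its gene lies on chromosome 11 at 69398508 to 69413675 (GRCm38, minus strand) and shares 4.11% of its exon bases with the opposite-strand gene Kdm6bos. Kdm6b ran from 29.1 CPM through a median of 54.1 to 92.9 CPM in the sufficient group and from 53.9 through 87.3 to 164 CPM in the deficient group. The ranges overlapped, but 4 deficient libraries stood above every sufficient one and 6 sufficient libraries stood below every deficient one. Kdm6b was 1.56-fold higher in the deficient group (log2 fold change 0.64 ± 0.12 SE, edgeR adjusted p = 0.00127), the smallest p among the members.

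KDM4C removes di- and trimethylation from H3K9, and its gene lies on chromosome 4 at 74242497 to 74405860 (GRCm38, plus strand). Kdm4c ran from 43.5 CPM through a median of 55.1 to 68.4 CPM in the sufficient group and from 44.3 through 85.5 to 107 CPM in the deficient group. The sufficient lymphomas were tightly grouped, and 9 of the 11 deficient ones stood above all of them. Kdm4c was 1.47-fold higher (log2 fold change 0.56 ± 0.12 SE, edgeR adjusted p = 0.00348). Its relatives Kdm4a, at -0.22 ± 0.10 SE, and Kdm4b, at -0.12 ± 0.15 SE, did not pass.

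KDM1A (LSD1) removes mono- and dimethylation from H3K4 in the CoREST complex, and its gene lies on chromosome 4 at 136550540 to 136602723 (GRCm38, minus strand). Kdm1a ran from 78.0 CPM through a median of 105 to 128 CPM in the sufficient group and from 119 through 125 to 141 CPM in the deficient group. All sufficient libraries but 1 lay below every deficient one, and the deficient lymphomas varied little (128 ± 8.03, SD, n = 11). The difference was small in size, 1.22-fold (log2 fold change 0.28 ± 0.07 SE, edgeR adjusted p = 0.00828). Rcor1, a CoREST subunit gene, was also higher, at 63.9 CPM ± 14.6 (SD, n = 12) and 85.2 CPM ± 13.3 (SD, n = 11), a log2 change of 0.39 (edgeR adjusted p = 0.0266). Its relatives Rcor2 (-0.27) and Rcor3 (-0.24) went the other way and were not called.

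Kdm6a (UTX), the X-linked H3K27 demethylase gene of the KMT2C and KMT2D complexes, ran from 60.2 CPM through a median of 89.0 to 127 CPM in the sufficient group and from 64.8 through 112 to 160 CPM in the deficient group. The ranges overlapped, with 4 deficient libraries above every sufficient one and 3 sufficient libraries below every deficient one. Its log2 fold change was 0.31 ± 0.15 SE (edgeR adjusted p = 0.153), and with Xist and Y-linked levels as covariates it was 0.49 (adjusted p = 0.0297). Kdm6a and Kdm5c are known to escape X inactivation in part, so their levels can move with the number of X chromosomes. Kdm5c, whose product removes H3K4 trimethylation, ran from 148 CPM through 255 to 408 CPM in the sufficient group and from 183 through 268 to 315 CPM in the deficient group, with -0.05 ± 0.16 SE (edgeR adjusted p = 0.840). The deficient libraries all lay inside the range of the sufficient ones. The other demethylases that missed the threshold ran from -0.22 for Kdm4a to 0.36 for Kdm1b.

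**Figure D2:**
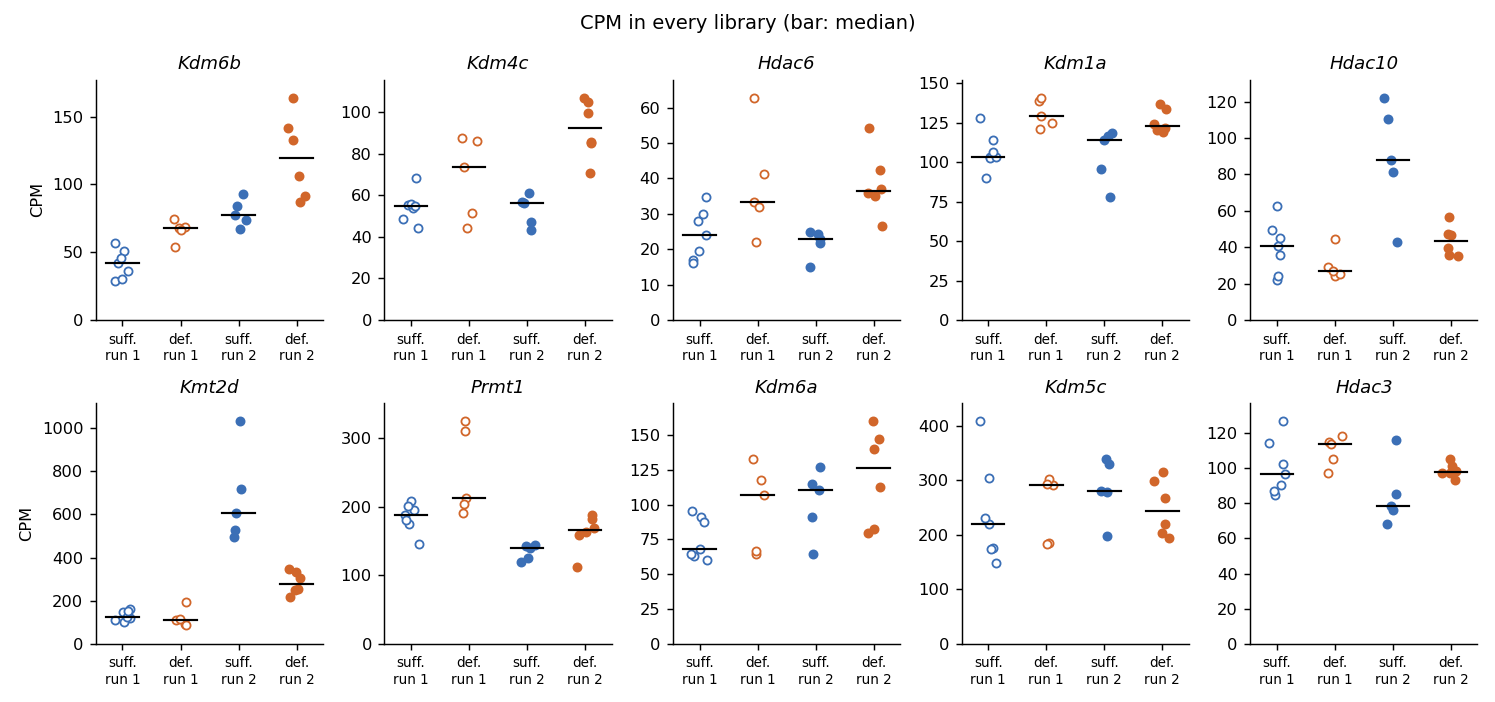
TMM-scaled CPM of 10 members in each library on linear axes from 0, with T cell sufficient and deficient lymphomas side by side, run 1 (open points) and run 2 (filled points) apart, and bars for the median of each group and run. Kdm1a, Hdac6 and Kdm4c show the least overlap between groups, and the highest Kmt2d values are 5 sufficient libraries of run 2.

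Among the 11 deacetylases, 1 rose and 1 fell, both of class IIb. HDAC6 is a mainly cytoplasmic deacetylase of tubulin and other proteins, and its gene lies on chromosome X at 7930120 to 7947889 (GRCm38, minus strand). Hdac6 ran from 15.0 CPM through a median of 23.4 to 34.7 CPM in the sufficient group and from 22.1 through 35.9 to 62.9 CPM in the deficient group. The ranges overlapped, with 7 of the 11 deficient libraries above every sufficient one. It was 1.68-fold higher (log2 fold change 0.74 ± 0.17 SE, edgeR adjusted p = 0.00379), and 0.74 (adjusted p = 0.0144) with Xist and Y-linked levels as covariates. HDAC10 deacetylates polyamines, and its gene lies on chromosome 15 at 89123307 to 89128700 (GRCm38, minus strand). Hdac10 ran from 22.0 CPM through a median of 47.4 to 122 CPM in the sufficient group and from 24.3 through 35.6 to 56.7 CPM in the deficient group. The deficient range lay inside the sufficient one, and 5 sufficient libraries stood above every deficient one. It was 1.64-fold lower (log2 fold change -0.71 ± 0.19 SE, edgeR adjusted p = 0.0109), and the adjusted p was 0.0679 with no run term.

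The 4 class I deacetylase genes all had positive log2 fold changes, with a median of 0.23, and all 4 missed the threshold. Hdac3, the catalytic subunit of the NCOR and SMRT corepressors that BCL6 recruits, ran from 68.3 CPM through a median of 88.8 to 127 CPM in the sufficient group and from 93.3 through 102 to 119 CPM in the deficient group. The deficient libraries lay inside the sufficient range but close together, and the difference of 0.17 ± 0.08 SE did not pass (edgeR adjusted p = 0.138). Hdac1 and Hdac2, paired catalytic subunits of the SIN3, NuRD and CoREST complexes, had 0.16 ± 0.07 SE (adjusted p = 0.107) and 0.28 ± 0.15 SE (adjusted p = 0.181) in edgeR. Hdac8, an X-linked gene, was the most different of the class, with 0.61 ± 0.25 SE (adjusted p = 0.0880 in edgeR). It was not called with Xist and Y-linked levels as covariates either.

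The 4 class IIa genes, whose products carry little catalytic activity of their own and act with HDAC3, also missed it. Hdac7, the most abundant of them, averaged 215 CPM ± 45.5 (SD, n = 12) and 299 CPM ± 186 (SD, n = 11), with 0.28 ± 0.24 SE (edgeR adjusted p = 0.408), and T cell deficient lymphoma 6 again stood highest at 758 CPM. Hdac4 averaged 31.4 CPM ± 27.3 (SD, n = 12) and 17.9 CPM ± 5.68 (SD, n = 11), with -0.74 ± 0.30 SE (edgeR adjusted p = 0.0752). By the SD of log2 CPM within a group, with run means removed, the most variable members were Hdac9, Kdm5b and Hdac11. Hdac9 had an SD of log2 CPM of 1.18 in the sufficient and 1.07 in the deficient group and levels from 8.26 to 107 CPM in the sufficient group, so a change of the size fitted for it, -0.51 ± 0.43 SE, was not detectable. Kdm5b had SDs of 1.05 and 0.943, and Hdac11, at a low level, had 0.961 and 1.09. At the other end, Kat8 had an SD of 0.117 in the sufficient group and Hdac3 one of 0.0887 in the deficient group.

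All 7 acetyltransferase genes missed the threshold, and their log2 fold changes lay in the narrow range from -0.09 to 0.21. Kat2a (GCN5, of the SAGA and ATAC complexes) averaged 94.8 CPM ± 16.9 (SD, n = 12) and 88.9 CPM ± 17.6 (SD, n = 11), with -0.09 ± 0.11 SE. Kat6a (MOZ), which acetylates H3, had -0.03 ± 0.11 SE. In the fit over both runs, the limits of 2 standard errors around these values stay well inside a 1.5-fold change in either direction for Kat2a and Kat6a. For Kat2a that fit joins values of opposite sign, 0.20 ± 0.15 SE in run 1 and -0.40 ± 0.11 SE in run 2. The limits for Kat2a in run 2 alone reach past a 1.5-fold decrease.

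The 7 bromodomain readers missed it too. Brd2, whose product binds acetylated histones at transcribed genes, had 0.00 ± 0.07 SE. Of the 7, Brd3 was the closest to the threshold, with 0.55 ± 0.21 SE (edgeR adjusted p = 0.0600). Sufficient lymphoma 10, which holds both Xist and Y-linked RNA, stood at 247 CPM against 44.2 to 77.5 CPM in the other 11. Brd3 was called without that library and without the 5 libraries of that kind. It was also called with DESeq2, limma-voom or scaling by library totals. It was not called with no run term, with Xist and Y-linked covariates or in either run alone. In the authors' deposited table Brd3 is called, with a log2 fold change of 0.61 and an adjusted p of 0.0297, beside the 7 members called here. That table calls 8 members, 12.9%, against 22.8% of its 11140 genes.

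Per kilobase of exon, Brd2 and Prmt1 were the most abundant transcripts of the set. Brd2 stood at a mean of 52.4 CPM per kb in the sufficient and 54.1 CPM per kb in the deficient group, and Prmt1 at 47.8 and 58.7 CPM per kb, so their order differed between the groups. Kdm5c was next in the sufficient group, at 36.2 CPM per kb, and Hdac7 in the deficient group, at 44.2 CPM per kb. The least abundant was Hdac11, the only class IV deacetylase, at 0.440 and 0.326 CPM per kb. On this scale Kmt2d, whose exons span 19.9 kb, is a moderately abundant transcript despite its high CPM.

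The second comparison was between the sequencing runs. The median size of the log2 difference between runs was 0.41 for the members, against the 0.18 between T cell groups. These sizes were 0.34 and 0.25 for all genes, and 0.30 and 0.20 for the 6651 genes within the middle 80% of the members' levels. With group as a covariate, 32 of the 62 members (51.6%) differed between run 2 and run 1, against 36.3% of all genes and 41.7% of those 6651. The members moved mostly one way, with 29 higher in run 2 (46.8% against 18.6% of all genes) and 3 lower (4.84% against 17.7%). The median log2 difference was 0.38 for the members and 0.02 for all genes. All 7 H3K4 methyltransferases were higher in run 2. Kmt2d was 3.58-fold higher (log2 1.84 ± 0.19 SE, edgeR adjusted p = 1.37e-07), Kmt2a 2.77-fold (1.47 ± 0.16 SE), Kmt2c 2.15-fold (1.10 ± 0.10 SE) and Kmt2b 2.01-fold (1.01 ± 0.09 SE). Setd2 was higher by 0.71 ± 0.10 SE and Kat6a by 0.58 ± 0.11 SE on the log2 scale, and 6 of the 7 bromodomain genes were higher. The members lower in run 2 were Prmt1 (-0.54 ± 0.10 SE), Prmt5 (-0.39 ± 0.11 SE) and Hdac1 (-0.21 ± 0.07 SE). The runs hold different lymphomas, and for the lymphoma that was sequenced again in run 2 only 1 column is in the table. A difference in the library or the sequencing and a difference between the lymphomas of the runs therefore cannot be told apart.

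**Figure D3:**
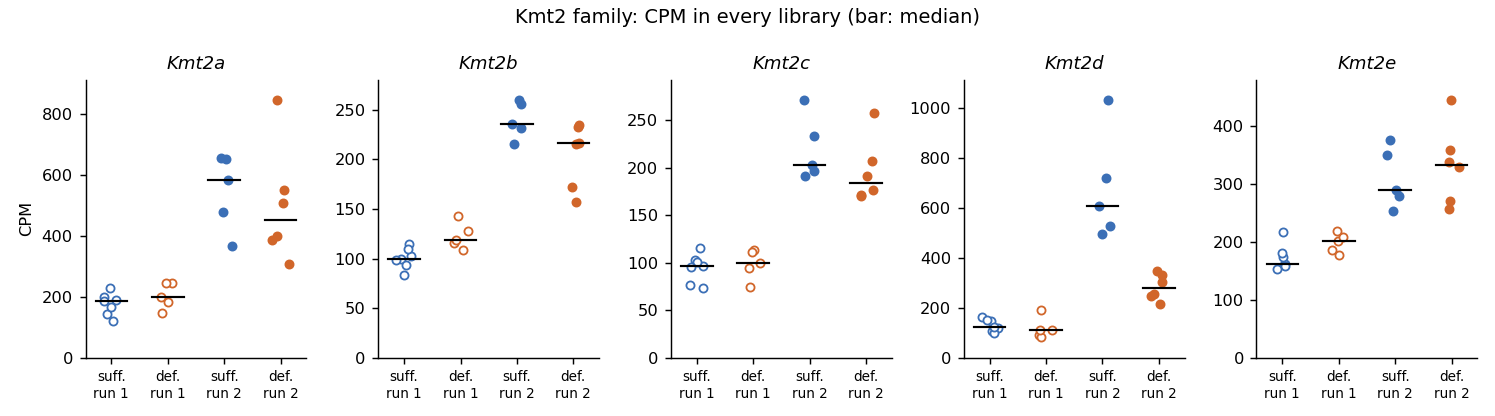
TMM-scaled CPM of Kmt2a, Kmt2b, Kmt2c, Kmt2d and Kmt2e in each of the 23 libraries on linear axes from 0, arranged by run and group with bars for the medians. All 5 genes are higher in run 2, and in run 2 the Kmt2d values of the 5 sufficient libraries lie above those of the 6 deficient ones.

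The run difference went with transcript length over the whole table. When genes were split by exon length into 10 groups of equal size, the median log2 difference between runs rose from -0.40 in the shortest group to 0.37 in the longest, where 41.1% of genes were higher in run 2. The longest group begins at 9.95 kb and holds 18 of the 62 members, of which 13 were higher in run 2. A long-gene index was the median log2 deviation of the 1095 longest genes, each taken from its own mean over all libraries. It ran from -0.258 to -0.0572 in the libraries of run 1 and from 0.121 to 0.414 in those of run 2. T cell deficient lymphoma 6 had the highest index. The difference between the T cell groups moved little with length, with medians from -0.10 in the shortest length group to 0.05 in the longest.

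**Figure D4:**
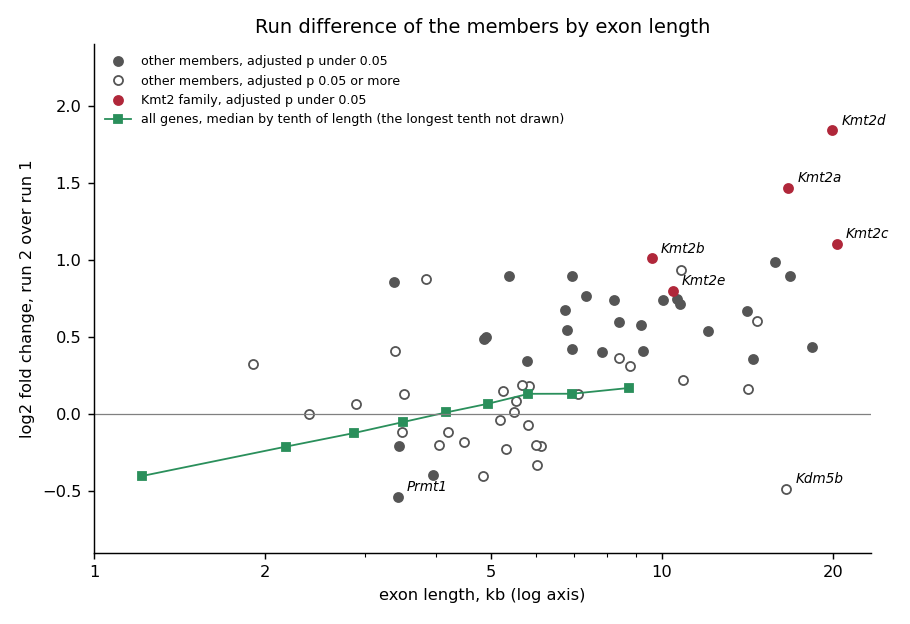
Log2 difference between run 2 and run 1 (edgeR, with group as a covariate) of the 62 members against exon length in kb on a log axis, with the median of all genes in each of the 9 shorter of 10 length groups. The all-gene medians rise with length, from -0.40 in the shortest group, and the longest members include Kmt2d at 1.84.

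Because of this the comparison of the T cell groups was repeated within each run. In run 1 alone edgeR called none of the 62 members and none of 11064 genes (0%), with 11 members and 1832 genes at an unadjusted p under 0.05. In run 2 alone it called 6 members (9.68%) of 62, against 12.3% of 11051 genes. These were Kdm6b, Hdac6, Kdm4c, Kmt2d and Hdac10, with Kat2a in addition, which was lower at -0.40 (adjusted p = 0.0434) in run 2 and had a value of 0.20 in run 1. The sign of the change was the same in both runs for 43 of the 62 members (69.4%), against 72.9% of all genes. Tested directly, the difference between the runs' effects passed for none of the 62 members and none of all genes (0%) in edgeR, with 7 members and 723 genes at an unadjusted p under 0.05.

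Kmt2d had the smallest p among the members for a difference between the runs' effects, although the fitted differences of Hdac4 (-1.17) and Setd7 (1.16) were larger. In run 1 the means were 130 CPM ± 24.0 (SD, n = 7) for sufficient libraries and 119 CPM ± 42.9 (SD, n = 5) for deficient ones. In run 2 the 5 sufficient libraries held 607, 495, 1032, 528 and 720 CPM, and the 6 deficient ones held 254, 217, 332, 248, 304 and 346 CPM. The groups overlapped in run 1 and did not overlap in run 2. The log2 fold change was -0.13 (adjusted p = 0.780) in run 1 and -1.25 (adjusted p = 0.00700) in run 2, both by edgeR. An exact two-sided permutation test of log2 CPM gave p = 0.419 over the 792 splits of run 1 and p = 0.00216 over the 462 splits of run 2, the smallest value these splits can give. The difference between the runs, -1.12 on the log2 scale, had an unadjusted p of 0.000962 and an adjusted p of 0.738 in edgeR, so it did not pass. In run 2 alone the log2 fold change was -0.13 for Kmt2a, -0.22 for Kmt2b and -0.16 for Kmt2c, and their difference from Kmt2d was not tested.

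The other called members had the same sign in both runs. Kdm6b had log2 fold changes of 0.67 in run 1 and 0.61 in run 2, with exact permutation p = 0.00505 and 0.0152 (0.0141 and 0.0236 when adjusted over the 14 such tests). Kdm1a had 0.29 and 0.27, with exact p = 0.00631 and 0.00216 (adjusted, 0.0147 and 0.0141). The exact tests were run only on the 7 members already called in these libraries and are a description of each run, not independent support. By edgeR over all genes of a run, Kdm6b had an adjusted p of 0.124 in run 1 and 0.0449 in run 2, and Kdm1a had 0.187 and 0.132. Hdac6 had 0.65 and 0.83, Kdm4c 0.33 and 0.80, Hdac10 -0.42 and -1.03, and Prmt1 0.42 and 0.28. The adjusted exact p of Hdac6, Kdm4c and Hdac10 was over 0.05 in run 1, and that of Prmt1 was over 0.05 in run 2. Within run 2 the ranges of the groups did not overlap for Hdac1, Hdac6, Kdm1a, Kdm4c and Kmt2d, 8.06% of the members against 8.4% of all genes.

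The other genes of the same machinery were counted beside the members. Of 106 symbols of partner genes named in 7 lists, 102 were tested, and 21 were higher and 4 lower in the deficient group, 24.5% against the 22.2% of all genes. The symbols include both the older and the newer names of Whsc1 (Nsd2) and Whsc1l1 (Nsd3), which were tested under the older names. Among 12 genes of COMPASS subunits and proteins that work with or beside the KMT2 and SETD1 enzymes, a list that also holds Kansl1 of the NSL acetyltransferase complex, 3 were higher. Psip1, whose product LEDGF tethers KMT2A to chromatin, averaged 268 CPM ± 60.3 (SD, n = 12) and 478 CPM ± 107 (SD, n = 11), and its log2 change was 0.81 ± 0.13 SE (edgeR adjusted p = 0.000545). Paxip1, a subunit of the KMT2C and KMT2D complexes, was higher by 0.47 ± 0.07 SE and Hcfc1 by 0.24 ± 0.06 SE. Of 15 other methyltransferases 3 were higher, the H3K36 enzyme gene Whsc1 (Nsd2) with 0.75 ± 0.15 SE, the H3K9 enzyme gene Suv39h1 with 0.60 ± 0.16 SE and the H3K79 enzyme gene Dot1l with 0.43 ± 0.11 SE.

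Of 24 other acetyltransferases and their subunits 4 were higher (Hat1, Tada2a, Ing5 and Meaf6, from 0.24 to 0.44). Crebbp averaged 61.4 CPM ± 24.7 (SD, n = 12) and 69.3 CPM ± 28.7 (SD, n = 11), and Ep300 335 CPM ± 110 and 270 CPM ± 85.1, and both missed the threshold (edgeR adjusted p = 0.699 and 0.0635). Of 7 sirtuins Sirt1 alone was higher, by 0.43 ± 0.10 SE, and all 5 tested demethylases outside the symbol rule missed the threshold. Of 23 subunits of deacetylase corepressors 6 were higher and 1 lower. Sap30, of the SIN3 complex, was higher by 0.84 ± 0.16 SE and the histone chaperone gene Rbbp7 by 0.84 ± 0.20 SE, while Tbl1xr1, of the NCOR complex, was lower by 0.54 ± 0.15 SE on the same scale.

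The list of bromodomain and other readers, 16 genes, had 4 higher and 3 lower. Zmynd11, whose product reads H3K36 trimethylation on the variant histone H3.3, averaged 89.8 CPM ± 44.9 (SD, n = 12) and 16.7 CPM ± 11.3 (SD, n = 11). It was 5.87-fold lower in the deficient group (log2 fold change -2.55 ± 0.36 SE, edgeR adjusted p = 0.000178), with -2.63 in run 1 and -2.48 in run 2. Cecr2 was higher by 1.35 ± 0.45 SE, with 0.56 in run 1 and 2.20 in run 2. Its sufficient levels ran from 18.6 to 306 CPM. The NURF subunit gene Bptf was higher by 0.57 ± 0.12 SE, while Zmynd8 changed by -0.46 ± 0.09 SE. Among the called partner genes, Zmynd11, Cecr2, Rbbp7, Sap30, Psip1 and Whsc1 had larger fitted changes than any of the 62 members. The largest changes of the members were Hdac6 at 0.74 and Hdac4 at -0.74, the latter not called.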

How the data were processed

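RNA was isolated with a column kit from purified splenic B lymphoma cells and made into TruSeq RNA libraries, per the labels' protocols. The authors deposited raw counts and CPM for 11140 genes in 23 libraries, and log2 fold changes, p-values and adjusted p-values of their own. Every listed gene exceeds 1 CPM in at least 7 libraries, and the deposited CPM equal count over column total within 5e-04. Limma, mm10 and GRCm38 are named in the submitters' processing notes. The aligner, the counter and the use of strand were not given in the sources used here. The column of sufficient lymphoma 4 was matched by its number, with another suffix than the label. The repeat library of sufficient lymphoma 1 has no count column of its own and was not analysed separately. The column of that lymphoma, taken as run 1, is the deepest at 30.6 M counts. Whether it also holds reads of the repeat library was not given.

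Counts were tested with edgeR 4.0.16 (R 4.3.3): filterByExpr, TMM, robust quasi-likelihood fit with run and group over 11020 genes, Benjamini-Hochberg adjustment. A standard error is the log2 fold change over the square root of F. CPM are TMM-scaled, and log2 CPM use a prior count of 2. An SD of log2 CPM is within a group after its run means were removed, whereas SDs of CPM are over the n libraries given. The code was tested on simulated data. Gene models are GENCODE M21 (GRCm38), with Setd8 and Prmt10 found under their newer symbols Kmt5a and Prmt9. DESeq2 1.42.0 and limma-voom (limma 3.58.1) were alternatives. The members and lists were chosen with earlier results of these data known. Every called member and 18 set genes were to be named, of which 1 is not reported here, and members named beyond these, partner genes included, were chosen after their values were seen. Same-numbered lymphomas of the groups did not deviate together, so the numbers do not pair them.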

Additional observations from a re-analysis of the deposited data

How the results depend on the processing

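All 7 called members passed in each of the 23 fits that left out 1 library. The count of called members was 7 to 9 in those fits, 5 to 7 higher and 2 to 3 lower, and the partner genes gave 16 to 24 higher and 3 to 6 lower. Against 7 called members (5 higher, 2 lower), with 22.2% of all genes called, scaling by library totals gave 13 (11 higher; 23.9% of all genes called, 14.6% higher), DESeq2 11 (8 higher; 28.5% and 13.8%), no run term 4 (0 lower; 15.9%) and run 1 alone 0 in either direction. The long-gene index as a covariate, added after seeing the data, gave 11 (4 lower) with 22.5% of all genes, an adjusted p under 0.01 gave 4 (0 lower) with 9.32%, and a fold over 1.5 gave 4 (2 higher) with 12.2%. Run 2 alone gave 3 higher, with 5.69% of all genes. Without the 5 libraries with both Xist and Y-linked transcripts there were 8 higher and 1 lower, with 8.71% and 9.54% of all genes. Scaling by library totals moved the median of all genes to 0.06 and the share of higher genes among calls from 47.5% to 61.0%. Of the partner genes, against 21 higher and 4 lower, run 1 alone gave 0 and 0, run 2 alone 12 and 2, DESeq2 7 lower and no run term 2 lower. In run 1 alone the counts of 0 stood beside 11 members at an unadjusted p under 0.05 in edgeR, and the cause of these counts was not tested.

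With no run term Kmt2d had an adjusted p of 0.207, and in run 2 alone Kdm1a and Prmt1 had 0.132 and 0.183. With the replicate number as a block, a number that pairs no samples (1 of 11 pairs correlated best with its own number, from -0.246 to 0.232, 4 over 0.1), 7 members were called, with Prmt1 lost (adjusted p 0.0657) and Hdac3 gained (0.24, adjusted p 0.0425). Hdac7 and members near 0 changed sign under some alternatives, and the cause was not tested. With the long-gene index Kmt2a had -0.11, Kmt2b -0.0056, Kdm5c 0.054 and Setd2 -0.033. With library totals Kmt2c had 0.026, Kdm5c 0.019 and Kat6a 0.042. With no run term Kmt2c had 0.0502 and Kat6a 0.016. In run 1 alone Kmt2c had 0.057, Kdm5c 0.071, Hdac7 -0.20, Kat2a 0.20 and Kat6a 0.099, and in run 2 alone Kmt2a had -0.13 and Kmt2b -0.22. Without the Xist and Y-linked libraries Kmt2c had 0.042, Setd2 -0.0099, Kat2a 0.031 and Kat6a 0.011. Kdm5c had 0.0054 with the block and 0.11 with the Xist and Y-linked covariates. Leaving out 1 library took Kmt2a from -0.042 to 0.10, Kdm5c from -0.10 to 0.035, Setd2 from -0.017 to 0.064 and Kat6a from -0.068 to 0.0049. Over the named members and the other alternatives, 207 values kept their direction and side of the threshold, 14 lost and 9 gained the call, and 22 changed sign.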
